A study of Rattus norvegicus with 48 samples.

Results

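The opioid peptides and receptors are 7 genes here: Penk, Pdyn and Pnoc, which encode the precursors of the peptides, and Oprm1, Oprd1, Oprk1 and Oprl1, which encode the receptors. They were found by gene symbol in the platform annotation of the arrays, where each symbol had 1 probe set, and they are 7 of 14324 distinct symbols. Each gene is described by brain area, by lineage and by stress.

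Messenger RNA was measured on whole-transcript arrays. The animals were Sprague-Dawley males, 120 days old, of generation F3. The control lineage (Con) descends from F0 mothers injected with the DMSO vehicle, and the vinclozolin lineage (Vin) from F0 mothers injected with 100 mg/kg/day of vinclozolin, an anti-androgenic fungicide, on embryonic days 8 to 14 of gestation. The F2 generation that bore the litters was untreated. Stressed rats (St) went through daily restraint of 6 hours from postnatal day 23 to 43 (21 days), and NSt rats were not restrained. A control and a vinclozolin rat shared a cage throughout and form a dyad. Punches of 2 mm sampled 4 areas: the basolateral amygdala, the motor cortex and the hippocampal fields CA1 and CA3. An array measures a pool of RNA from 4 rats of a lineage, and the same 4 dyads supplied all areas, so n counts pools and not animals. Replicates 1 to 3 of the NSt groups are dyad groups 1 to 3, and replicates 1 to 3 of the St groups are dyad groups 4 to 6. Each combination of lineage and stress has 3 arrays in every area.

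Opioid peptides are cut from large precursors in secretory granules. Enkephalins from proenkephalin (Penk) act mainly at the delta receptor (Oprd1) and the mu receptor (Oprm1), dynorphins from prodynorphin (Pdyn) act at the kappa receptor (Oprk1), and nociceptin from prepronociceptin (Pnoc) acts at the nociceptin receptor (Oprl1). These receptors couple to inhibitory G proteins, open potassium channels and lower transmitter release. In the forebrain Penk is abundant in striatal medium spiny neurons and in parts of the amygdala, and Pdyn in dentate granule cells and other striatal medium spiny neurons, while the receptors are known for their part in reward, pain and responses to stress.

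Values are log2 signals as deposited, and a difference of 1 is 2-fold. Of the 48 arrays, 46 were used: motor cortex NSt-Vin 2 and CA1 St-Con 3 equal the mean of both other arrays of the group in all probe sets, so those groups have n = 2. Array medians lay between 7.08 and 7.13 in the amygdala, 6.76 and 6.81 in motor cortex, 7.11 and 7.17 in CA1 and 7.34 and 7.39 in CA3, so differences between areas are also given with the array medians subtracted. Amygdala and motor cortex shared an RNA preparation, and so did CA1 and CA3. Of the used motor cortex arrays, NSt-Con 1 to 3 and NSt-Vin 1 were scanned on day 1 and the others on day 2. Of the used CA1 arrays, St-Vin was scanned on day 4 and the rest on day 3. The arrays left out were scanned on day 1 (motor cortex NSt-Vin 2) and day 4 (CA1 St-Con 3). Marker genes bore out the area labels in part. Of 6 genes listed for basolateral amygdala neurons, Lypd1 and Cyp26b1 were highest in the amygdala (Lypd1 9.38 to 10.32 there against 9 at most elsewhere). The medians of the other four genes, Rspo2, Etv1, Neurod6 and Slc17a7, were not highest there (Neurod6 9.04 in the amygdala against 10.74 in CA3), and the median of the list mean was 9.19 (amygdala), 8.68 (motor cortex), 9.16 (CA1) and 9.39 (CA3). A list of 5 CA1 pyramidal genes had a median of 8.93 in CA1 and 9.43 in CA3, so the CA1 punches did not stand apart from CA3 by these genes. The 15 measured choroid plexus genes stood over 0.6 above their area mean in 5 arrays: amygdala St-Vin 3, motor cortex NSt-Con 1, CA1 NSt-Con 2 and 3, and CA3 NSt-Con 3. Their part in the results was not tested beyond leaving these arrays out.

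RefSeq promoters were at hand for Pdyn, Oprm1 and Oprd1. Those of Pdyn and Oprm1 are shown, Pdyn because it was higher in CA3 than in CA1 and motor cortex in every array, and Oprm1 because its 2 annotated start sites differ in composition and its arrays did not overlap between amygdala, motor cortex and hippocampus. Each line gives the 250 bases before a start site, 5′ to 3′ on the gene's strand, in assembly GRCr8, with motif matches in capitals. The motifs searched on both strands were TATAAA (found in 12.9% of the 33469 promoters of the table), the cAMP response element TGACGTCA (1.59%), the AP-1 site TGANTCA (6.34%) and the noncanonical AP-1 element TGACAAACA (0.323%).
Pdyn, chr3:137366504-137366753, minus strand: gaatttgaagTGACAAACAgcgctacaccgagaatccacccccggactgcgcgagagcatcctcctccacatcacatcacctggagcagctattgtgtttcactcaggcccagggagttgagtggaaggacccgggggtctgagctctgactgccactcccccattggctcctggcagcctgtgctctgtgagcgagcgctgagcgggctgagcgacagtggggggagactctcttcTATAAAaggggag
Oprm1, chr1:45565121-45565370, plus strand: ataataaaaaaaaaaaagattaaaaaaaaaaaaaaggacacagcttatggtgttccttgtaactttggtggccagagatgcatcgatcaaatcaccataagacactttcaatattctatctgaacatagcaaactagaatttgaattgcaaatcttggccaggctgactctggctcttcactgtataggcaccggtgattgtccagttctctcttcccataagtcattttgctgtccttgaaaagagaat
Oprm1, chr1:45585733-45585982, plus strand: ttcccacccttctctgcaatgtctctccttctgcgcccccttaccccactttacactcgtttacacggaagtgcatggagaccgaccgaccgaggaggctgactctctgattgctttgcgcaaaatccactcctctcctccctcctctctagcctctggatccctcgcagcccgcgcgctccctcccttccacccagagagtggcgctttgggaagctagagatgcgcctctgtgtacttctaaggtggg
The Pdyn window holds TATAAA, with its first base at position -13 from the start site, and TGACAAACA, at position -240. The 4 motifs were chosen by hand, so a match is a description, and its share among all promoters was not used as a test. Neither Oprm1 window holds any of the 4 motifs. The upstream Oprm1 window has a GC content of 36.4% and 2 CpG dinucleotides, and the downstream one 58.4% and 13, against 59.2% and 10 for Pdyn and a median of 5 CpG over all promoters of the table. The Oprd1 window, not shown, has 79.6% GC and 34 CpG, more CpG than 97% of the promoters, and no motif match. The arrays measure transcripts and carry no reading of methylation or of binding at these windows.

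The largest differences in opioid genes were between brain areas. Oprm1, Oprk1 and Penk were highest in the amygdala, as deposited Oprm1 and Oprk1 were lowest in motor cortex, and Pdyn was higher in CA3 than in motor cortex and CA1. In motor cortex minus amygdala, 0 of the 7 genes were called higher and 6 lower by limma, with p adjusted over all 27342 probe sets by Benjamini-Hochberg and a threshold of 0.05, and 79.6% of all probe sets were called (17.2% higher and 62.4% lower). The other counts, called higher and lower, were 1 and 5 for CA1 minus amygdala (77% of all probe sets called, 56.1% higher and 20.9% lower), 2 and 3 for CA3 minus amygdala (87.7%, 79% and 8.64%), 3 and 0 for CA1 minus motor cortex (88.6%, 84.1% and 4.51%), 6 and 0 for CA3 minus motor cortex (95.1%, 92.4% and 2.71%) and 5 and 0 for CA3 minus CA1 (80.2%, 71.6% and 8.67%). Without regard to direction the counts lie near or below the background. Area cannot be told apart from scan day, except between amygdala and motor cortex on scan day 1. The median of all probe sets shifted by -0.18, 0.13, 0.32, 0.30, 0.50 and 0.21 in the same 6 comparisons. With the array medians subtracted, 6, 6, 6, 5, 5 and 4 of the 7 genes were called, and 80%, 75.5%, 76.5%, 66%, 75.9% and 61.8% of all probe sets. Since punches are bulk tissue, fewer cells of a type and less RNA per cell cannot be told apart.

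**Figure D1:**
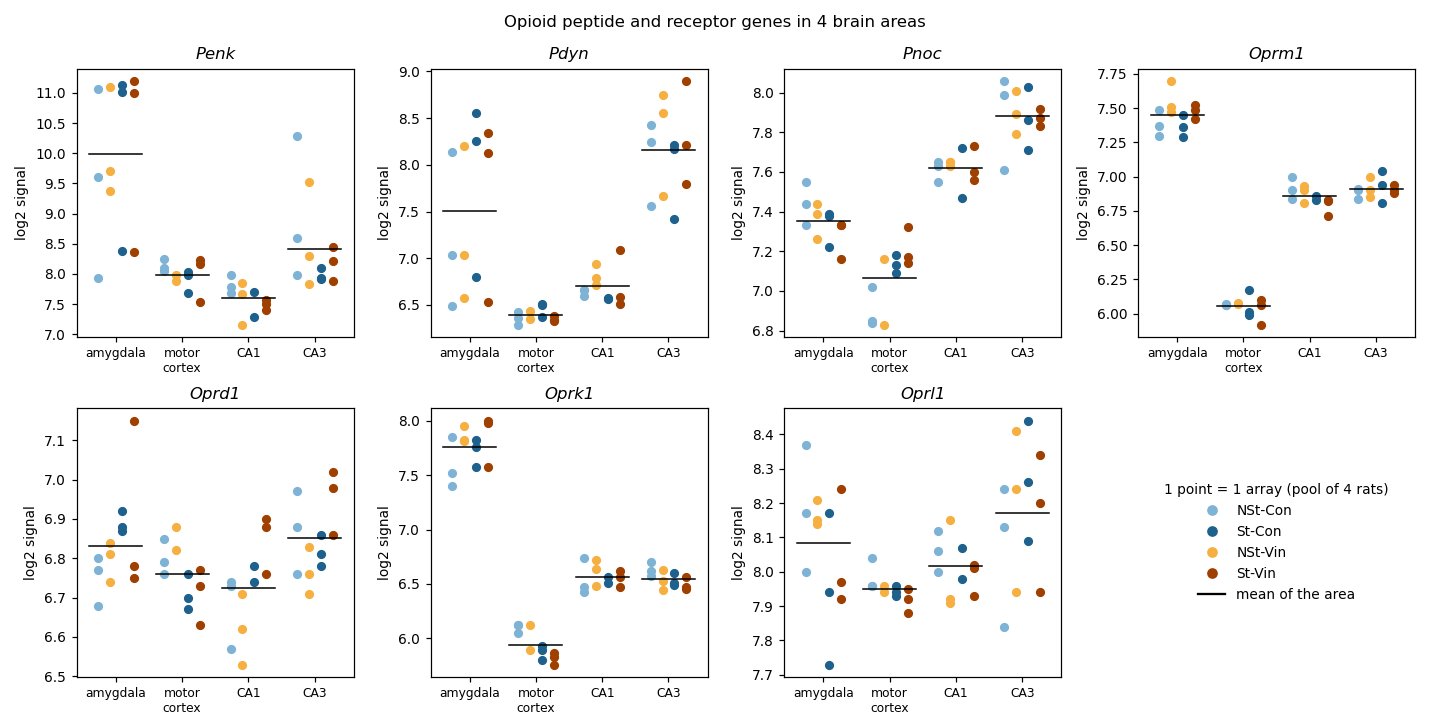
Log2 signal of the 7 genes (1 panel each, vertical scales differ) in the 46 used arrays by brain area, coloured by group, with the mean of the area as a line. Oprm1 and Oprk1 of the amygdala lie above every array of the other areas, and Penk and Pdyn of the amygdala spread over more than 2 log2 units.

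Penk, the enkephalin precursor, averaged 9.99 ± 1.25 (SD, n = 12) in the amygdala, 7.99 ± 0.22 (n = 11) in the cortex, 7.60 ± 0.25 (n = 11) in CA1 and 8.42 ± 0.75 (n = 12) in CA3. Motor cortex was 4.04-fold lower than the amygdala (log2 difference -2.01 ± 0.33 SE, limma adjusted p = 1.09e-06), and the difference was -1.69 with the array medians subtracted and -1.80 within scan day 1, where both areas have arrays of the same day. CA1 was 5.32-fold and CA3 2.98-fold lower than the amygdala (-2.41 ± 0.33 and -1.57 ± 0.32, and -2.44 and -1.84 with the medians subtracted). CA3 minus motor cortex was 0.44 ± 0.33 as deposited (limma adjusted p = 0.192) and -0.15 with the medians subtracted (adjusted p = 0.695), so its sign depends on the scaling. The SE is pooled over all 4 areas. CA3 minus CA1 was 0.84 ± 0.33 (adjusted p = 0.0196), and 0.60 (adjusted p = 0.112) with the medians subtracted.

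Within the amygdala Penk varied 9.58-fold between arrays, from 7.94 to 11.2, and did so by dyad group in both lineages. In NSt-Con the arrays read 11.07, 9.60 and 7.94 in dyad groups 1 to 3, and the NSt-Vin arrays 11.09, 9.71 and 9.38. The St-Con arrays read 11.01, 11.13 and 8.38 in dyad groups 4 to 6, and the St-Vin arrays 11, 11.2 and 8.37. Dyad groups 1, 4 and 5 were high and 3 and 6 low, except that NSt-Vin 3 stood 1.44 above its cage-mate pool. The median difference between the lineages of a dyad group was 0.045 in size, against an SD of 1.27 between dyad group means. Lineage and stress groups overlapped throughout. The lineage difference without stress was 0.52 ± 0.95 (limma, n = 3 and 3, adjusted p = 1). With the dyad group as a block it was 0.52 ± 0.21 (adjusted p = 0.951), from 0.02, 0.11 and 1.44 in dyad groups 1 to 3. The unpaired difference turned to -0.28 without NSt-Con 3, but that fit kept its cage-mate pool NSt-Vin 3 (9.38).

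Pdyn, the dynorphin precursor, had the same split into high and low amygdala punches. Its NSt-Con values were 8.14, 7.03 and 6.49, the NSt-Vin arrays 8.20, 7.03 and 6.58, the St-Con arrays 8.26, 8.55 and 6.80, and the St-Vin arrays 8.13, 8.34 and 6.53. That is a 4.17-fold range, with dyad groups 1, 4 and 5 high in both lineages and an SD of 0.86 between dyad group means. The largest lineage difference within a dyad group was 0.27. In the stressed dyads Pdyn was lower in the vinclozolin pool in each of the 3 groups, at -0.13, -0.21 and -0.27. The limma fit without pairing gave -0.20 ± 0.60 (adjusted p = 1), and with the dyad group as a block -0.20 ± 0.056 (adjusted p = 0.699). Without the choroid-rich array St-Vin 3 the unpaired difference was 0.37, but that fit kept its low cage-mate pool St-Con 3 (6.80).

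Markers of striatal medium spiny neurons moved with both genes. The mean of the 12 measured striatal genes was 8.80, 7.64 and 7.20 in NSt-Con, 8.66, 7.43 and 7.35 in NSt-Vin, 9.06, 9.06 and 7.29 in St-Con, and 8.74, 8.81 and 7.14 in St-Vin. Drd1 and Drd2, the dopamine receptors of the direct and indirect striatal pathways, ranged from 7.34 to 10.18 and from 5.90 to 9.17 in the amygdala, and Adora2a, the adenosine receptor of the indirect pathway, from 7.54 to 10.38. The list lay between 6.45 and 6.56 in motor cortex. The part of neighbouring striatal tissue or of intercalated cells, for which 2 of 4 listed genes were measured (7.36 to 8.47 in the amygdala), in the Penk and Pdyn levels was not tested.

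**Figure D2:**
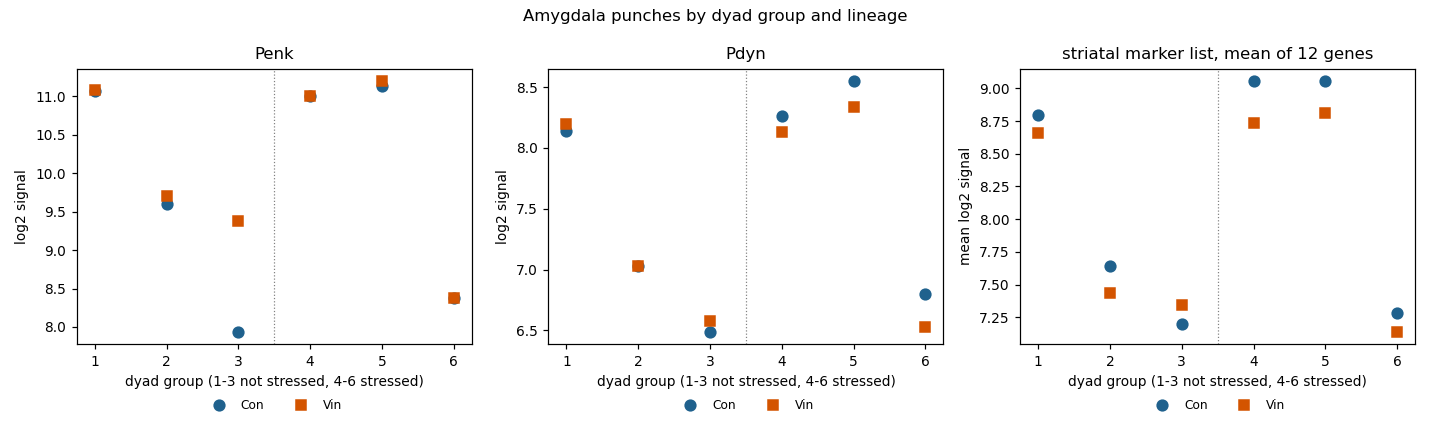
Log2 signal of Penk and Pdyn and the mean of 12 striatal marker genes in the 12 amygdala arrays, by dyad group, with control (circles) and vinclozolin (squares) pools side by side and a dotted line between non-stressed and stressed groups. Dyad groups 1, 4 and 5 are high and 3 and 6 low in all 3 panels, and the 2 lineages of a group lie close together apart from Penk in group 3.

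In CA3 Penk was high in a pair of arrays. The NSt-Con arrays read 7.99, 10.28 and 8.59, the NSt-Vin arrays 8.30, 7.83 and 9.52, the St-Con arrays 8.09, 7.92 and 7.93, and the St-Vin arrays 7.89, 8.21 and 8.45. NSt-Con 2 and NSt-Vin 3 stood apart, and they were the 2 CA3 arrays whose striatal list exceeded the CA3 median by more than 0.5 (by 0.955 and 0.655). The stress difference in the control lineage was -0.97 ± 0.50 (limma, adjusted p = 0.997) and -0.31 ± 0.20 (adjusted p = 0.997) without both arrays, and the average stress difference moved from -0.67 to -0.096. In motor cortex Penk lay between 7.54 and 8.24 and in CA1 between 7.16 and 7.99. The motor cortex NSt-Con arrays (8.24, 8.09 and 8.05) lay above both NSt-Vin arrays (7.88 and 7.98) and all St-Con arrays (7.99, 8.03 and 7.68), with differences of -0.20 ± 0.17 and -0.23 ± 0.15 that missed the threshold (adjusted p = 0.947 and 0.460). Of all probe sets, 20.3% kept NSt-Con and NSt-Vin apart there.

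Pdyn was highest in CA3, at 8.16 ± 0.47 (SD, n = 12), against 6.39 ± 0.070 (n = 11) in motor cortex, 6.70 ± 0.18 (n = 11) in CA1 and 7.51 ± 0.82 (n = 12) in the amygdala. Every CA3 array (7.42 to 8.90) lay above every CA1 array (6.51 to 7.09) and every motor cortex array (6.29 to 6.51). The share of all probe sets with such a separation was not counted. Of all probe sets, 80.2% were called in CA3 minus CA1 and 95.1% in CA3 minus motor cortex. CA3 exceeded motor cortex 3.40-fold (1.77 ± 0.21, limma adjusted p = 8.20e-10) and CA1 2.79-fold (1.48 ± 0.21, adjusted p = 9.16e-08), and the differences were 1.18 and 1.24 with the medians subtracted. The excess of CA3 over the amygdala, 0.65 ± 0.20 (adjusted p = 0.00334), was 0.39 (adjusted p = 0.0846) with the medians subtracted. CA1 minus motor cortex was 0.29 ± 0.21 as deposited and -0.063 with the medians subtracted. Within scan day 1 the difference of motor cortex from the amygdala was -0.85 ± 0.37 (adjusted p = 0.0673), against -1.12 ± 0.21 over all days and -0.79 with the medians subtracted.

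Within CA3 Pdyn was lowest in replicate 3 of every group. Values were 8.24, 8.43 and 7.56 in NSt-Con, 8.75, 8.55 and 7.67 in NSt-Vin, 8.17, 8.21 and 7.42 in St-Con, and 8.21, 8.90 and 7.79 in St-Vin. In all 6 dyad groups the vinclozolin pool read higher, by 0.51, 0.12 and 0.11 in groups 1 to 3 and by 0.04, 0.69 and 0.37 in groups 4 to 6, a mean of 0.31 ± 0.26 (SD, n = 6). Of all probe sets, 0.987% were higher in the vinclozolin pool in all 6 CA3 pairs. The limma fit gave 0.31 ± 0.24 (adjusted p = 0.997), which missed the threshold, and the groups overlapped. It ranged from 0.16 to 0.56 over the settings run, with 0.18 without the choroid-rich array NSt-Con 3, 0.16 without St-Vin 2 and 0.56 without the striatum-rich arrays NSt-Con 2 and NSt-Vin 3. Without NSt-Con 3 the lineage difference without stress went from 0.25 to -0.012, while its low cage-mate pool NSt-Vin 3 (7.67) stayed in. The fits that left out arrays did not pair cage-mates. With the dyad group as a block and all used arrays the average was 0.31 ± 0.082 (limma, adjusted p = 0.957).

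Dentate granule markers followed a like pattern in CA3. The mean of the 6 measured dentate genes, among them Prox1, the granule cell transcription factor, was 8.98, 8.90 and 8.44 in NSt-Con, 9.28, 9.12 and 8.22 in NSt-Vin, 8.97, 9.11 and 8.37 in St-Con, and 8.78, 9.32 and 8.35 in St-Vin. It was low in dyad groups 3 and 6, as Pdyn was, but higher in the vinclozolin pool in 3 of the 6 dyad groups. In CA1 Pdyn read 6.66, 6.6 and 6.66 in NSt-Con and 6.71, 6.79 and 6.94 in NSt-Vin, which did not overlap (6.11% of all probe sets did so), with a difference of 0.17 ± 0.13 (limma, adjusted p = 0.993). Both St-Con arrays (6.56 and 6.58) lay below NSt-Con (14.7% of all probe sets kept these groups apart), and St-Vin read 6.51, 6.59 and 7.09. The dentate list in CA1 was highest in NSt-Vin 3 (8.75) and St-Vin 3 (8.16), the arrays with the highest Pdyn, and between 7.37 and 8.12 in the other arrays. The part of dentate tissue in the CA1 and CA3 punches in these Pdyn levels was not tested.

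**Figure D3:**
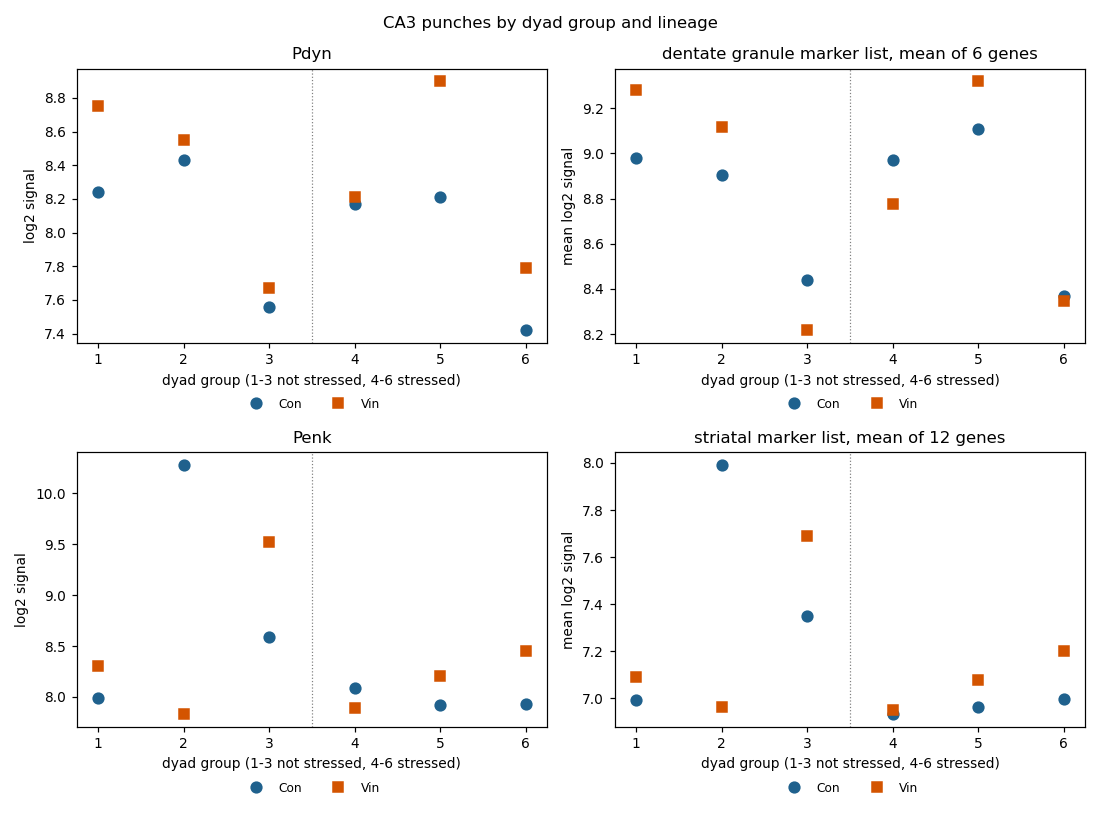
Log2 signal of Pdyn and Penk in the 12 CA3 arrays by dyad group, each beside the mean of a marker list (6 dentate granule genes, 12 striatal genes), with control (circles) and vinclozolin (squares) pools and a dotted line between non-stressed and stressed groups. Pdyn and the dentate list are low in dyad groups 3 and 6, and Penk and the striatal list are highest in the control pool of group 2 and the vinclozolin pool of group 3.

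Pnoc, the nociceptin precursor, varied little within an area. It lay between 7.16 and 7.55 in the amygdala, 6.83 and 7.32 in motor cortex, 7.47 and 7.73 in CA1 and 7.61 and 8.06 in CA3. CA3 exceeded the amygdala by 0.53 ± 0.045 and by 0.27 with the medians subtracted. Motor cortex minus amygdala was -0.29 ± 0.047 as deposited and 0.032 with the medians subtracted, so that order depends on the scaling, and CA3 minus CA1 shrank from 0.26 ± 0.047 to 0.027.

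Pnoc in motor cortex read higher on average in stressed rats of both lineages, short of the threshold, and in the vinclozolin lineage this rested on NSt-Vin 3. The NSt-Con arrays read 6.84, 7.02 and 6.85 and the St-Con arrays 7.18, 7.13 and 7.09, without overlap. The 2 NSt-Vin arrays read 7.16 and 6.83 and the St-Vin arrays 7.32, 7.14 and 7.17, which overlapped. The differences were 0.23 ± 0.086 in the control lineage (limma, n = 3 and 3, adjusted p = 0.181) and 0.22 ± 0.096 in the vinclozolin lineage (n = 2 and 3, adjusted p = 0.998), and the average was 0.22 ± 0.064 (adjusted p = 0.168). Without NSt-Vin 3 the vinclozolin difference was 0.05 and the average 0.14, and without NSt-Vin 1 the vinclozolin difference was 0.38. All NSt-Con arrays were scanned on day 1 and all stressed arrays on day 2. NSt-Vin 3, scanned on day 2 as well, read 6.83, below all 6 stressed arrays. With scan day as a block the average difference was 0.47 (limma, adjusted p = 0.882). That block rests on NSt-Vin 1 (7.16) against NSt-Vin 3 (6.83), so it cannot separate scan day from other differences between these arrays.

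Among the receptors, Oprm1 and Oprk1 as deposited kept amygdala, motor cortex and hippocampus apart without overlap. The share of all probe sets that do so was not counted, although 77% to 95.1% of them were called in the 6 area comparisons. With the medians subtracted Oprk1 in CA3 no longer differed from motor cortex (0.013, limma adjusted p = 0.816). The mu receptor gene Oprm1 lay between 7.29 and 7.70 in the amygdala (mean 7.45 ± 0.11, SD, n = 12), 5.92 and 6.17 in motor cortex (6.05 ± 0.064, n = 11), 6.71 and 7.00 in CA1 (6.86 ± 0.075, n = 11) and 6.81 and 7.04 in CA3 (6.91 ± 0.065, n = 12). Amygdala arrays lay above, and motor cortex arrays below, all arrays of the other areas. Motor cortex was 2.63-fold lower than the amygdala (-1.39 ± 0.033, limma adjusted p = 3.47e-28), and the difference was -1.07 with the medians subtracted and -1.41 within scan day 1. CA1 and CA3 were 1.51-fold and 1.45-fold lower than the amygdala (-0.59 and -0.54, and -0.62 and -0.80 with the medians subtracted). CA3 minus CA1 was 0.053 ± 0.033 (adjusted p = 0.131) as deposited and -0.18 with the medians subtracted, so the order of these neighbours depends on the scaling.

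In the amygdala Oprm1 read higher in the vinclozolin pool of every dyad group. Without stress the NSt-Con arrays read 7.30, 7.49 and 7.37 and the NSt-Vin arrays 7.47, 7.51 and 7.70, while St-Con read 7.29, 7.36 and 7.45 and St-Vin 7.42, 7.52 and 7.49. The differences within dyad groups were 0.17, 0.02 and 0.33 without stress and 0.13, 0.16 and 0.04 with stress, a mean of 0.14 ± 0.11 (SD, n = 6). Of all probe sets, 2.19% were higher in the vinclozolin pool in all 6 amygdala pairs. The average lineage difference was 0.14 ± 0.054 (limma, unadjusted p = 0.0217, adjusted p = 0.997), short of the threshold, and the groups overlapped. In the other areas the dyad groups went both ways, with mean differences of -0.014 (cortex), -0.028 (CA1) and 0.005 (CA3). Whether the lineage difference of Oprm1 differs between areas was tested with limma's F test (unadjusted p = 0.0346, adjusted p = 1.00 to 2 decimals), which called 0% of all probe sets, although 1164 had an unadjusted p under 0.05.

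Oprk1, the kappa receptor gene, had the same order of areas as Oprm1 at both ends. It lay between 7.4 and 8 in the amygdala (mean 7.75 ± 0.20, SD, n = 12), 5.76 and 6.12 in motor cortex (5.94 ± 0.14, n = 11), 6.43 and 6.74 in CA1 (6.56 ± 0.10, n = 11) and 6.44 and 6.70 in CA3 (6.55 ± 0.080, n = 12). Motor cortex was 3.5-fold lower than the amygdala (-1.81 ± 0.050, limma adjusted p = 1.81e-26), -1.48 with the medians subtracted and -1.73 within scan day 1. CA1 and CA3 were 2.29-fold and 2.31-fold lower than the amygdala (-1.19 and -1.21, and -1.22 and -1.47 with the medians subtracted). CA3 minus CA1 was within its error as deposited (-0.013 ± 0.050, adjusted p = 0.814). With the medians subtracted CA3 was lower than CA1 (-0.25, adjusted p = 5.87e-05), and its excess over motor cortex went from 0.60 ± 0.050 to 0.013 (adjusted p = 0.816).

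Amygdala Oprk1 read higher in the vinclozolin pool in 5 dyad groups and equal in 1. The share of all probe sets with this pattern was not counted. The NSt-Con arrays read 7.85, 7.4 and 7.52 and the NSt-Vin arrays 7.95, 7.81 and 7.82, while St-Con read 7.76, 7.82 and 7.57 and St-Vin 8, 7.98 and 7.57. The differences within dyad groups were 0.10, 0.41 and 0.30 without stress and 0.24, 0.16 and 0.00 with stress. The average was 0.20 ± 0.093 (limma, unadjusted p = 0.0497, adjusted p = 0.997), short of the threshold, and the groups overlapped. In CA3 the vinclozolin pool was lower in 4 of the 6 dyad groups, with a mean of -0.068 ± 0.12 (SD). The F test of the lineage difference across areas gave an unadjusted p of 0.0245 for Oprk1 and an adjusted p of 1.00 to 2 decimals.

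**Figure D4:**
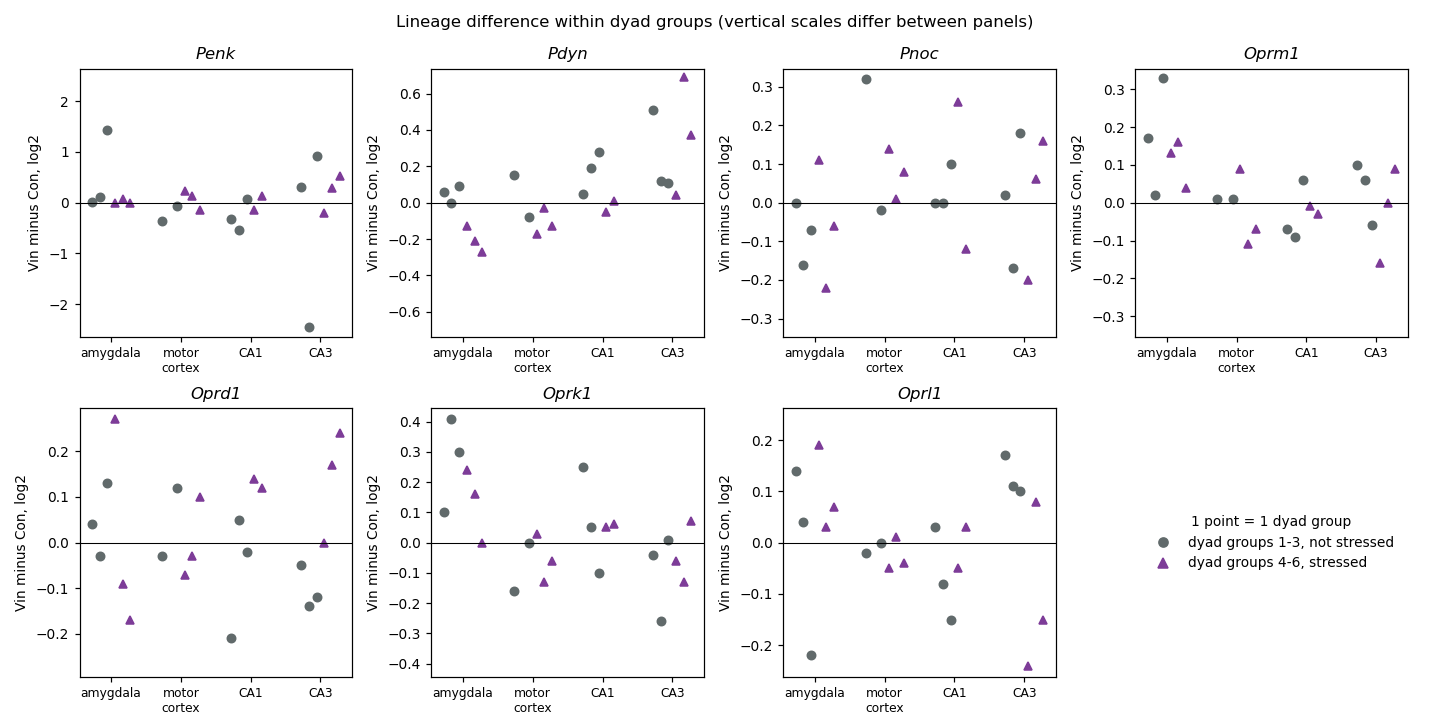
Vinclozolin minus control log2 difference within each dyad group (circles: groups 1 to 3, not stressed; triangles: groups 4 to 6, stressed) for the 7 genes in 4 areas, with a vertical scale of its own in each panel. All 6 amygdala points of Oprm1 and all 6 CA3 points of Pdyn lie above 0, while the points of most other panels fall on both sides.

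In motor cortex Oprk1 read lower in stressed rats of both lineages, short of the threshold. The NSt-Con arrays read 6.05, 6.12 and 6.12 and the 2 NSt-Vin arrays 5.89 and 6.12, while St-Con read 5.80, 5.89 and 5.93 and St-Vin 5.83, 5.76 and 5.87. Stressed and non-stressed arrays did not overlap within either lineage. The differences were -0.22 ± 0.066 in the control lineage (limma, adjusted p = 0.110) and -0.19 ± 0.074 in the vinclozolin lineage (adjusted p = 0.998). The latter was -0.07 without NSt-Vin 3 and -0.30 without NSt-Vin 1. Averaged over lineage the difference was -0.20 ± 0.050 (unadjusted p = 0.00146, adjusted p = 0.124), and it passed the threshold (adjusted p = 0.0365) only when the array equal to the mean of its group was counted as an NSt-Vin replicate. On scan day 2 alone, NSt-Vin 3 read 6.12 against 5.76 to 5.93 in the 6 stressed arrays. With scan day as a block the average was -0.38 (limma, adjusted p = 0.882). Only NSt-Vin has used arrays of both days, so that block rests on NSt-Vin 1 (5.89) against NSt-Vin 3 (6.12). It cannot separate scan day from other differences between these arrays. Without the choroid-rich array NSt-Con 1 it was -0.22 (adjusted p = 0.164).

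Groups that do not overlap are common in motor cortex. Between NSt-Con and St-Con 3 of the 7 genes (Penk, Pnoc and Oprk1) were apart, as were 24.3% of all probe sets, and between NSt-Vin and St-Vin 2 (Oprd1 and Oprk1), as were 13.2% of all probe sets.

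Oprd1, the delta receptor gene, had the narrowest range of area means as deposited, from 6.72 ± 0.12 in CA1 (SD, n = 11) through 6.76 ± 0.075 in motor cortex (n = 11) and 6.83 ± 0.12 in the amygdala (n = 12) to 6.85 ± 0.097 in CA3 (n = 12). With the array medians subtracted motor cortex came out highest, at 0.26 above the amygdala and 0.50 above CA3 (a CA3 minus motor cortex difference of -0.50), so the order of areas depends on the scaling and the range was then wider than that of Pnoc or Oprl1. In the vinclozolin lineage its stress difference ran in opposite directions in cortex and hippocampus. In motor cortex the NSt-Vin arrays read 6.82 and 6.88 and the St-Vin arrays 6.63, 6.73 and 6.77, a difference of -0.14 ± 0.062 (limma, adjusted p = 0.998). In CA1 NSt-Vin read 6.53, 6.62 and 6.71 and St-Vin 6.88, 6.90 and 6.76, a difference of 0.23 ± 0.069 (adjusted p = 0.134). In CA3 NSt-Vin read 6.71, 6.83 and 6.76 and St-Vin 6.86, 6.98 and 7.02, a difference of 0.19 ± 0.063 (adjusted p = 0.268).

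None of these 3 pairs of groups overlapped for Oprd1, and none of the differences passed the threshold. Of all probe sets, 25.2% kept NSt-Vin and St-Vin apart in CA1 and 18% in CA3. CA1 St-Vin was scanned on a day of its own, so stress and day of scanning cannot be told apart for it, while all CA3 arrays were scanned on 1 day. In the control lineage the difference was -0.090 ± 0.056 (motor cortex), 0.080 ± 0.077 (CA1) and -0.053 ± 0.063 (CA3). The lineage by stress interaction of Oprd1 in CA3 was 0.24 ± 0.090 (limma, unadjusted p = 0.0203, adjusted p = 0.752). In the amygdala St-Con (6.88, 6.87 and 6.92) lay above NSt-Con (6.80, 6.77 and 6.68), as 5.8% of all probe sets kept these groups apart, with a difference of 0.14 ± 0.091 (adjusted p = 0.996). The F test asking whether the average stress difference varies between areas gave an unadjusted p of 0.00525 and an adjusted p of 0.119 for Oprd1, and 0.0110 and 0.156 for Pnoc. It called 0 of the 7 genes and 0.907% of all probe sets.

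**Figure D5:**
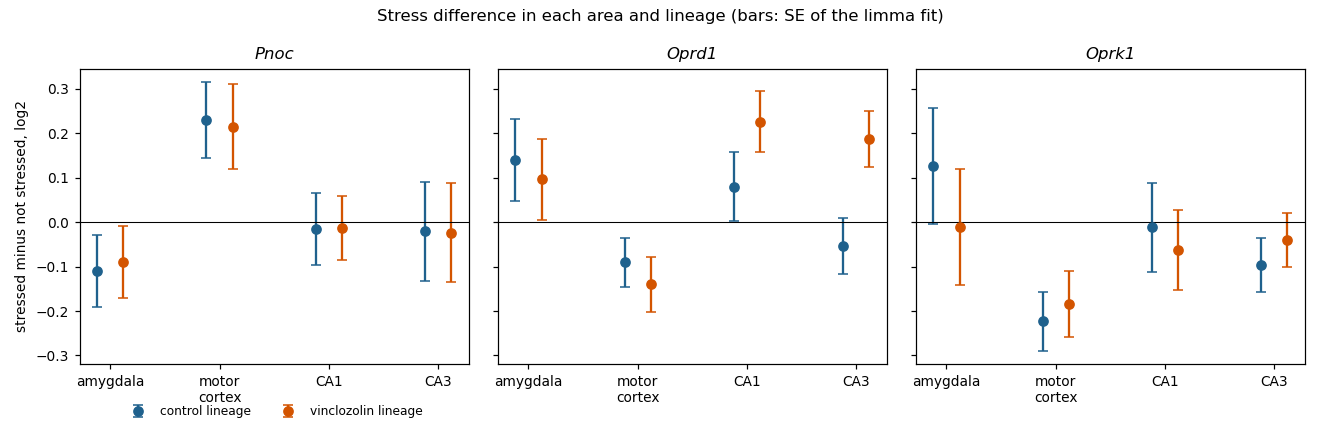
Stressed minus non-stressed log2 difference of Pnoc, Oprd1 and Oprk1 in each area, for the control and the vinclozolin lineage, with the SE of the limma fit as bars. Pnoc is above 0 and Oprk1 below 0 in motor cortex in both lineages, and Oprd1 in the vinclozolin lineage is below 0 in motor cortex and above 0 in CA1 and CA3; none passed the threshold.

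Oprl1, the nociceptin receptor gene, lay between 7.73 and 8.37 in the amygdala, 7.88 and 8.04 in motor cortex, 7.91 and 8.15 in CA1 and 7.84 and 8.44 in CA3. Its area means spanned 7.95 to 8.17, and the sign of 5 of its 6 area differences turned with the array medians subtracted. Within CA3 replicate 3 was lowest in every group, at 7.84 in NSt-Con, 7.94 in NSt-Vin, 8.09 in St-Con and 7.94 in St-Vin, against 8.13 to 8.44 in the other arrays. This is the dyad grouping of Pdyn in CA3, while in the amygdala dyad group 4 was lowest (7.73 and 7.92) and the highest arrays were NSt-Con 3 (8.37) and St-Vin 3 (8.24). Oprl1 in the amygdala read lower on average with stress, at -0.18 ± 0.086 (limma, adjusted p = 0.996), which missed the threshold. The striatal list there averaged 7.88 in NSt-Con and 7.81 in NSt-Vin, against 8.47 in St-Con and 8.23 in St-Vin. The part of tissue makeup in the Oprl1 difference was not tested.

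Across lineage and stress together, 0 of the 7 genes passed in any of the 28 comparisons within areas. Of the 196 tests of single genes, 15 had an unadjusted p under 0.05 (7.65%), against 6.47% over all probe sets and comparisons, so the share is near the background. All probe sets together gave calls in 3 of the 28 comparisons: the stress difference in motor cortex in the control lineage (0.636% of all probe sets called), its average over lineage (0.00731%) and the stress difference in CA1 in the vinclozolin lineage (0.505%). The other 25 comparisons called 0%. In the 3 comparisons with calls the scanning day also differed between the groups, though only in part for the motor cortex average. Its share in these calls cannot be separated from that of stress by such a design. The part of tissue makeup in them was not tested beyond leaving out the choroid-rich arrays. With the dyad group as a block, comparisons within CA1 called 1.27% (vinclozolin minus control with stress), 0.494% (interaction) and 0.41% (lineage averaged over stress) of all probe sets, and 0 of the 7 genes. Each of these CA1 comparisons involves St-Vin, whose arrays had a scanning day not shared by any other used CA1 array. The part of scanning in these calls was not tested.

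The median lineage difference of the 7 genes, averaged over stress, was 0.042 (amygdala), -0.032 (motor cortex), 0.013 (CA1) and 0.0083 (CA3), beside 0.0033, 0, 0.0067 and -0.0033 for all probe sets. The median stress difference, averaged over lineage, was 0.058, -0.038, -0.038 and -0.022 in the same areas, beside -0.0017, -0.0067, -0.013 and -0.010.

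The genes whose levels were most like those of a member were found by Pearson correlation over the 46 arrays after each area mean was subtracted, and again over the 12 amygdala arrays. They are given as a description, since arrays share dyads and tissue makeup. Penk was most like Sv2c (r = 0.931), Drd1 (0.927) and Drd2 (0.926) over all arrays, and Ppfia4 (0.984), Sv2c (0.982) and Olfm3 (0.977) in the amygdala. Pdyn was most like Lrp12 (0.912), Pdzd2 (0.905) and Slc2a13 (0.892) over all arrays, and in the amygdala like both probe sets of Arpp19 (0.994 and 0.992) and Ppp1r9a (0.992). Oprl1 was most like Kcnd3 (0.829), Nr2f1 (0.804) and Hpcal1 (0.778). The nearest gene was weaker for Oprk1 (Hacl1, 0.679), Oprd1 (Drd5, 0.627), Oprm1 (Manba, 0.618) and Pnoc (Stk11ip, 0.616).

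Genes that make, cut, sense or relay opioid peptides were followed in 5 lists with 57 measured genes. Within areas, 0 of the 57 passed in any of the 28 comparisons, and 5.64% of their 1596 tests had an unadjusted p under 0.05. In CA3 minus motor cortex 53 of the 57 rose and 2 fell, beside 92.4% and 2.71% of all probe sets (median 0.52, beside 0.50). In motor cortex minus amygdala 15 rose and 26 fell, beside 17.2% and 62.4% of all probe sets (median -0.076, beside -0.18).

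Among precursor processing genes, Scg2, a granin of secretory granules, was higher in CA3 than in motor cortex by 1.52 ± 0.10 (limma) and by 0.93 with the medians subtracted, and Qpct, which forms amino-terminal pyroglutamate, was lower in motor cortex than in the amygdala (-1.09 ± 0.059, and -0.76). Of the peptide-degrading enzymes, Mme, the enkephalin-cleaving neprilysin, was lower than in the amygdala by all 3 comparisons, at -1.38 ± 0.23 (motor cortex), -1.45 ± 0.23 (CA1) and -0.68 ± 0.22 (CA3), and -1.05, -1.48 and -0.94 with the medians subtracted. In the signalling list Kcnj6, a G protein-gated potassium channel, was higher in CA3 than in the amygdala (1.62 ± 0.097, and 1.36 with the medians subtracted), and Adcy5, the main striatal adenylyl cyclase, lower in motor cortex and CA1 (-1.44 ± 0.19 and -1.12 ± 0.19, and -1.12 and -1.15). Of the genes that regulate the receptors, Rgs9, a striatal brake on G protein signalling, was lower in motor cortex than in the amygdala (-2.24 ± 0.27, and -1.92 with the medians subtracted), Rgs14 was higher in CA3 than in motor cortex (1.80 ± 0.067, and 1.21) and Rgs4 lower (-1.58 ± 0.18, and -2.17). Tac1, the substance P precursor, was lower in motor cortex than in the amygdala (-2.25 ± 0.29, and -1.93 with the medians subtracted). Adcy5, Rgs9 and Tac1 also belong to the striatal marker list that followed the dyad groups. Pomc, the precursor of beta-endorphin, lay between 7.31 and 7.61 in the amygdala, 7.02 and 7.31 in motor cortex, 7.22 and 7.50 in CA1 and 7.42 and 7.90 in CA3, with no comparison within an area past the threshold.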

How the data were processed

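Each of 27342 probe sets has a log2 signal per array, used as deposited by the authors. The submitters' processing notes name RMA, a method that summarises normalized probe signals on the log2 scale, and Partek; versions are not given in the sources used here. Probe sets were named through the platform annotation (15097 with 1 symbol, 323 with several, 11922 with none). Differences were tested with limma 3.58.1 in R 4.3.3 on the values as deposited: the 4 groups of an area in 1 fit with 7 contrasts, and areas in 1 fit of all arrays with the pool as a random block (statmod 1.5.0). P-values are two-sided. Both scripts were tested on simulated data. Replicate numbers mark shared cages in the labels, and cage-mate pools deviated together (correlation over 0.1 in 6 of 6 amygdala, 3 of 5 cortex, 5 of 5 CA1 and 5 of 6 CA3 pairs). Named genes are the members, Pomc, for the pathway lists examples among the 4 largest called differences per list and comparison, up to 3 most alike genes per member, and single cell type markers where they check a label or a list. The members and lists were chosen with earlier results of these data known. Alternatives covered scaling, filtering, blocks, scan day and left-out arrays; one, leaving out striatum-rich CA3 arrays, was chosen after seeing the data. The number of arrays limits the precision.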

Additional observations from a re-analysis of the deposited data

Results flagged for a closer look

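The stress difference of Oprd1, the delta receptor gene, in the vinclozolin lineage ran in opposite directions between areas, with groups that did not overlap in any of the 3. It was -0.14 (motor cortex), 0.23 (CA1) and 0.19 (CA3). The difference between areas was not tested for this lineage alone. Averaged over lineage, limma's F test across the 4 areas gave an adjusted p of 0.119. Motor cortex NSt-Vin rests on 2 arrays. Such separation was common: 13.2% (motor cortex), 25.2% (CA1) and 18% (CA3) of all probe sets kept NSt-Vin and St-Vin apart. Among used CA1 arrays St-Vin had a scanning day of its own. Its CA3 pyramidal and claustrum marker lists did not overlap those of CA1 NSt-Vin, while some other lists did. The part of scanning or tissue makeup in the CA1 difference was not tested.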

How the results depend on the processing

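The 7 genes gave 0 calls within areas under every setting run, except that with all 48 arrays 1 gene (Oprk1) was called for the average stress difference in motor cortex and 1 gene for a stress difference that varies between areas. Area calls moved with scaling: for CA1 minus motor cortex from 3 to 5 with quantile normalization and 5 with array medians subtracted, and for CA3 minus CA1 from 5 to 3 with quantile normalization, and to between 3 and 5 when a pool was left out (3 without St-Con 2). Some differences changed sign, and beyond the shift of array medians that both scalings remove by construction, the cause was not tested. With quantile normalization motor cortex minus amygdala became 0.0064 (Pnoc), 0.27 (Oprd1) and 0.042 (Oprl1), CA3 minus amygdala -0.20 (Oprd1) and -0.31 (Oprl1), CA1 minus motor cortex -0.063 (Pdyn) and -0.25 (Oprl1), CA3 minus motor cortex -0.13 (Penk), -0.47 (Oprd1) and -0.35 (Oprl1), and CA3 minus CA1 -0.16 (Oprm1), -0.075 (Oprd1) and -0.11 (Oprl1). With array medians subtracted the same differences, in that order, became 0.032, 0.26 and 0.19, -0.24 and -0.175, -0.063 and -0.28, -0.15, -0.50 and -0.36, and -0.18, -0.11 and -0.079. Without the choroid-rich arrays Pdyn in the amygdala became 0.365 (lineage with stress) and 0.315 (interaction), Oprd1 in CA3 minus amygdala -0.00073 and Oprk1 in CA3 minus CA1 0.0093. Within scan day 1 Oprd1 in motor cortex minus amygdala became 0.037. The fits within areas that leave out arrays do not pair cage-mates, so the cage-mate pool of a left-out array stays in. Leaving out an array or a pool, the range was -0.275 to 1.29 for the Penk lineage difference without stress in the amygdala, -0.74 to 0.365 for that of Pdyn with stress, -0.79 to 0.315 for its interaction, -0.0071 to 0.063 for Oprd1 in CA3 minus amygdala and -0.036 to 0.012 for Oprk1 in CA3 minus CA1.

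With the dyad group as a replicate block, no call of the 7 genes changed; the average lineage difference stayed at 0.14 for amygdala Oprm1 (limma, adjusted p = 0.540), 0.20 for amygdala Oprk1 (adjusted p = 0.376) and 0.31 for CA3 Pdyn (adjusted p = 0.957). Over all probe sets, the 174 calls for stress in motor cortex of the control lineage became 1027 with all 48 arrays, 0 with scan day as a block, 50 without dim probe sets, 390 with quantile normalization, 385 with trend and robust settings, 19 without choroid-rich arrays, 600 in the fit of all areas and 0 to 300 leaving out an array. The 2 calls for its average over lineage became 560, 0, 0, 1, 53, 1 and 169 under the first 7 of these settings. The 138 calls for stress in CA1 of the vinclozolin lineage became 752 with all 48 arrays, 80 without dim probe sets, 44 with quantile normalization, 305 without choroid-rich arrays, 1586 in the fit of all areas and 0 to 604 leaving out an array. Scan day as a block was not run in CA1, where a day of its own holds all of St-Vin, and averaging probe sets of a gene changes nothing with 1 probe set each.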
